A study of Rattus norvegicus with 10 samples.

Results

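The 6 genes described here, Mbp, Mobp, Cnp, Mag, Mog and Mal, encode proteins of the myelin sheath that oligodendrocytes wrap around axons. All probe sets annotated to one of these symbols alone were taken, which gave 12 of 8740 non-control probe sets and 6 of the 4736 genes so annotated: 1 for Mbp, 4 for Mobp, 1 for Cnp, 3 for Mag, 2 for Mog and 1 for Mal. RNA from rat brain was hybridised to 10 arrays of 1 colour. Cocaine-treated rats gave 1 array each for the ventral tegmental area, caudate putamen, nucleus accumbens, amygdala and prefrontal cortex, and saline-treated control rats gave 1 array for each of the same 5 regions. The labels do not state the strain, sex or age of the rats, the dose and length of treatment or how many animals stand behind an array, so p-values below measure the spread between these arrays, which may be technical in part.

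Myelin is a compacted stack of oligodendrocyte membrane that speeds conduction along axons, and it is dense in fibre tracts and sparse in cortical grey matter. Mbp, myelin basic protein, holds the cytoplasmic faces of the membrane together, and Mobp is a small basic protein of the same compartment. Cnp, the cyclic nucleotide phosphodiesterase of myelin, lies in the uncompacted channels. Mag is an adhesion protein of the membrane next to the axon, Mog lies on the outermost surface of the sheath, and Mal is a proteolipid of lipid rafts that takes part in sorting membrane proteins. In tissue RNA, fewer oligodendrocytes and less RNA per oligodendrocyte cannot be told apart.

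All values are the expression index that the authors deposited, on a linear intensity scale. The median index of an array lay between 2208 and 2310 over non-control probe sets. The prefrontal cocaine array was the least like the others: its median correlation with them was 0.912, and it held 226 values of exactly 0, against 18 on its saline partner. The ventral tegmental cocaine array held 120 zeros, against 40 with saline, and the amygdala saline array 91, against 42 with cocaine. The amygdala arrays had the lowest correlation between the arrays of a region, 0.940. None of the 12 myelin probe sets had a zero or a value below the floor of 1028, the 20th percentile of all values above 0, and all 12 were among the 5244 probe sets tested.

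Myelin transcripts formed a gradient over the regions. The mean of the centred log2 index over the 6 genes, each on its probe set of highest mean, was 0.42 with cocaine and 0.25 with saline in the ventral tegmental area. It was 0.26 with cocaine and 0.36 with saline in the caudate putamen, and -0.09 with cocaine and -0.02 with saline in the nucleus accumbens. The amygdala stood at -0.24 with cocaine and -0.13 with saline, and the prefrontal cortex at -0.47 with cocaine and -0.34 with saline. The arrays of the ventral tegmental area and caudate putamen overlapped, and each of the other 3 regions was separate from its neighbours in this order. The summed index of the 6 probe sets ran from 75974 to 130731 over cocaine arrays and from 82580 to 133966 over saline arrays, with the prefrontal cortex lowest in both.

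**Figure D1:**
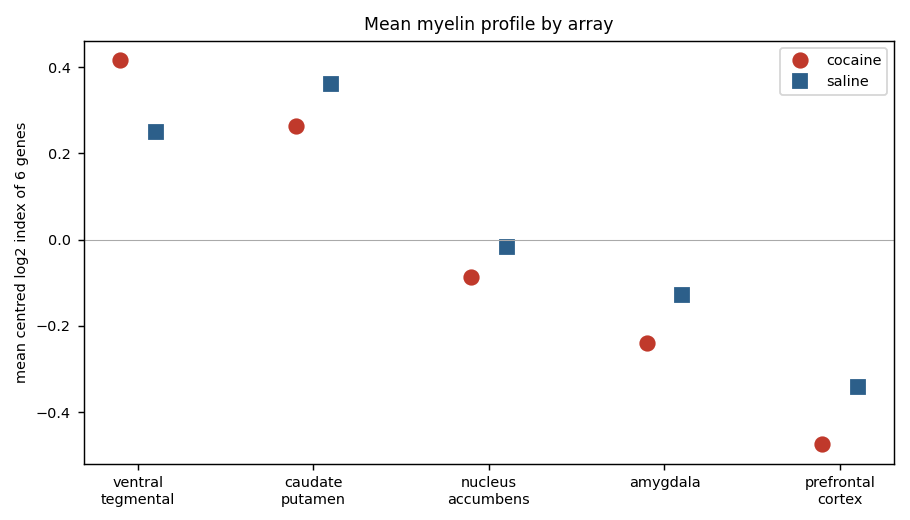
Mean centred log2 index of the 6 myelin genes (y axis) on each of the 10 arrays, by region (x axis), with circles for cocaine and squares for saline. Values lie between 0.25 and 0.42 in the ventral tegmental area and caudate putamen and between -0.47 and -0.34 in the prefrontal cortex.

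Mobp had 4 probe sets, and 3 of them spanned the gradient widely. The probe set D28111_g_at stood at 31410 with cocaine and 25424 with saline in the ventral tegmental area, and at 32167 with cocaine and 34779 with saline in the caudate putamen. It was 18866 with cocaine and 17978 with saline in the nucleus accumbens, 16565 with cocaine and 18647 with saline in the amygdala, and 9629 with cocaine and 13696 with saline in the prefrontal cortex. Both arrays of the ventral tegmental area and of the caudate putamen thus lay above every array of the other 3 regions, and both prefrontal arrays lay below all others. The probe set D28111_at ran from 5477 on the prefrontal cocaine array to 23706 on the caudate putamen saline array. The probe set D28110_g_at ran from 3322 on the prefrontal cocaine array to 16006 on the ventral tegmental cocaine array. The fourth, D28110_at, moved over a narrower range, with means of 4469 ± 353 in the ventral tegmental area and 3060 ± 3.73 in the prefrontal cortex (SD, n = 2 each). Each SD of a region here and below is taken over 1 cocaine and 1 saline array and includes any difference between them.

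Cnp followed the order of regions of the mean profile of the 6 genes. Its index was 20964 with cocaine and 19154 with saline in the ventral tegmental area, 18425 with cocaine and 19899 with saline in the caudate putamen, and 13078 with cocaine and 14678 with saline in the nucleus accumbens. It stood at 12256 with cocaine and 11505 with saline in the amygdala and at 7792 with cocaine and 10201 with saline in the prefrontal cortex. No array of the nucleus accumbens, amygdala or prefrontal cortex reached a value of the first 2 regions, and the prefrontal cortex did not overlap any other region.

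The start regions of Mobp and Cnp are shown because both genes differed in the ventral tegmental area, caudate putamen and prefrontal cortex by the test given below. Sequences are from RefSeq on the GRCr8 build, 250 bases before to 50 bases after the annotated start, 5′ to 3′ on the gene's strand, at chr8:128746982-128747281 on the plus strand for Mobp and chr10:86011254-86011553 on the plus strand for Cnp. Capitals mark ACAAAG or its reverse complement CTTTGT, the letters of a core that Sox transcription factors, among them the oligodendrocyte factor Sox10, are known to recognise. AACAAT or ATTGTT, another such core, was searched on both strands as well.
Mobp: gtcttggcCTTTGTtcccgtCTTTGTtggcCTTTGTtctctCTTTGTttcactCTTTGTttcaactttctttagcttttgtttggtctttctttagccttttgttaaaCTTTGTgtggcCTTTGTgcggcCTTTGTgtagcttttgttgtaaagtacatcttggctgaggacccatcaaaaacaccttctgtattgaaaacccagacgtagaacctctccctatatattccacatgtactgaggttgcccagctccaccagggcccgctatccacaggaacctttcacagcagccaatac
Cnp: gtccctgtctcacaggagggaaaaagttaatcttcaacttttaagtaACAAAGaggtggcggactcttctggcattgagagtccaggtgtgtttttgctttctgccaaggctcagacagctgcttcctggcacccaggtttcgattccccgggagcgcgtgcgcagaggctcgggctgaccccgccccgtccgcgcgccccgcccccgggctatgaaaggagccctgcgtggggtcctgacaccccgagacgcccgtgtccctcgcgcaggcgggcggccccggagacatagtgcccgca
Mobp held 8 matches, all as CTTTGT and all upstream of the start, and Cnp held 1. ACAAAG was present on either strand in 18.8% of 33469 promoter windows of this length, and 3 of these windows held 8 or more matches. AACAAT was in neither of the printed windows, and 11.7% of all windows held it. Of the 6 genes, 5 matched the promoter table, and Mog did not. A match describes letters only.

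Mog, on the probe set M99485_at, had 5362 with cocaine and 5314 with saline in the ventral tegmental area, and 4715 with cocaine and 5737 with saline in the caudate putamen. It had 2843 with cocaine and 3195 with saline in the nucleus accumbens, 2624 with cocaine and 2485 with saline in the amygdala, and 1626 with cocaine and 1965 with saline in the prefrontal cortex. The nucleus accumbens, amygdala and prefrontal cortex followed one another without overlap on this probe set. The second Mog probe set, L21995_s_at, had the same order of region means over a smaller range, at 6417 ± 713 in the ventral tegmental area and 4263 ± 229 in the prefrontal cortex (SD, n = 2 each).

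Mag, on X06554cds_s_at, stood at 11410 with cocaine and 9596 with saline in the ventral tegmental area, above all other arrays. The caudate putamen had 7396 with cocaine and 8117 with saline, and the nucleus accumbens had 7261 with cocaine and 8397 with saline. The amygdala had 6882 with cocaine and 7061 with saline, and the prefrontal cortex had 6368 with cocaine and 6400 with saline. The caudate putamen and nucleus accumbens overlapped on this probe set. On M22357_g_at the caudate putamen, at 6309 with cocaine and 6627 with saline, lay above the nucleus accumbens, at 5458 with cocaine and 5848 with saline, and the probe set ran from 4243 on the prefrontal cocaine array to 8294 on the ventral tegmental cocaine array. The third Mag probe set, M22357_at, did not follow the others: it ran from 1819 on the amygdala cocaine array to 3398 on the ventral tegmental cocaine array, and its correlation with the mean profile of the 6 genes over the 10 arrays was 0.247, against 0.820 and 0.901 for the other Mag probe sets.

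Mal varied less, with 15572 with cocaine and 16387 with saline in the ventral tegmental area and 16604 with cocaine and 15725 with saline in the caudate putamen. It had 14365 with cocaine and 13829 with saline in the nucleus accumbens, 11408 with cocaine and 12487 with saline in the amygdala, and 11567 with cocaine and 11404 with saline in the prefrontal cortex. The amygdala and prefrontal cortex overlapped.

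Mbp had the narrowest range of region means of the 6 genes, 0.37 on the log2 scale, and its signal was close to the top of the scale. Its index was 44454 with cocaine and 39604 with saline in the ventral tegmental area, 45616 with cocaine and 48824 with saline in the caudate putamen, and 40606 with cocaine and 39110 with saline in the nucleus accumbens. It was 35205 with cocaine and 42482 with saline in the amygdala and 36194 with cocaine and 36779 with saline in the prefrontal cortex. The caudate putamen lay above all other arrays, and the remaining regions overlapped in part. Mbp reached 87.9% and 86.9% of the largest index on the cocaine and saline arrays of the ventral tegmental area and 84.4% and 87.3% on those of the caudate putamen, against 55.8% and 60.1% in the prefrontal cortex. On 5 of the 10 arrays it was at or above 0.8 of the largest value, so differences of Mbp between regions and treatments may be compressed, and with such values taken as missing the ventral tegmental area and caudate putamen had no Mbp value left, and Mbp dropped out of the region fit. No other myelin probe set passed 0.8 on any array, the highest being Mobp D28111_g_at at 62.2% on the caudate putamen saline array.

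**Figure D2:**
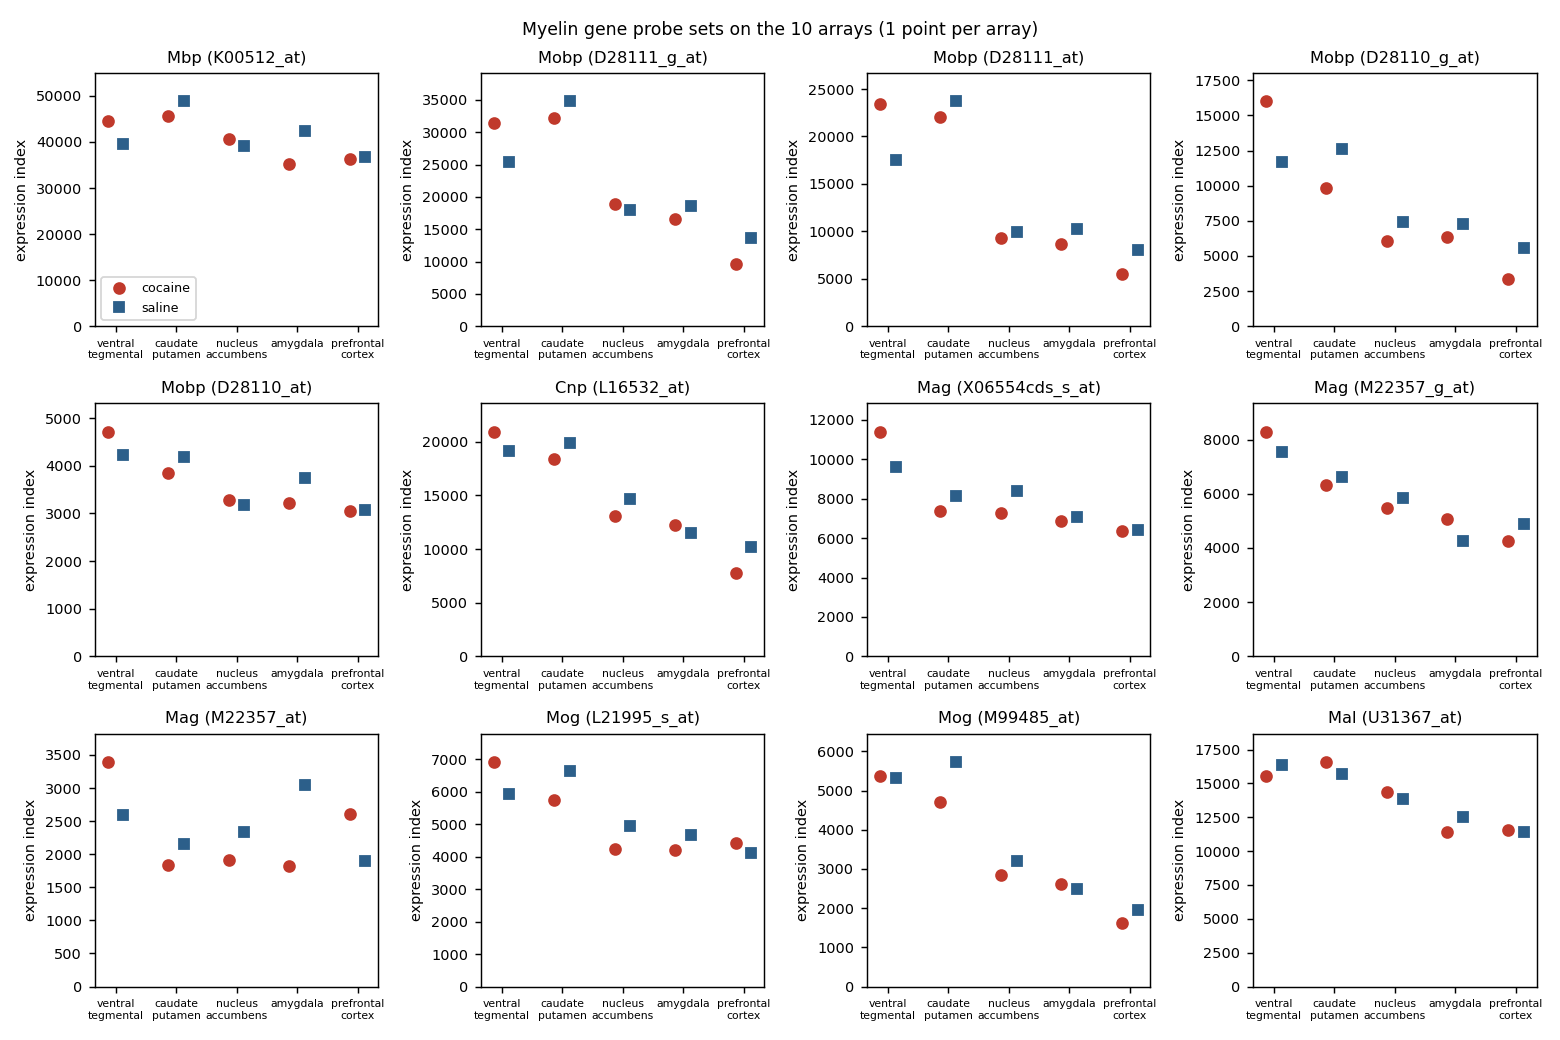
Expression index (y axis, linear, from 0) of the 12 myelin probe sets in the 5 regions (x axis), 1 point per array, with red circles for cocaine and blue squares for saline. Mobp, Cnp and Mog M99485_at step down from the first 2 regions to the prefrontal cortex, while Mbp stays between 35205 and 48824.

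Each region was then set against the mean of the other 4, in limma with treatment as a term and Benjamini-Hochberg adjustment over all tested probe sets. In the ventral tegmental area, 9 of the 12 myelin probe sets were higher, from Mobp, Cnp, Mag and Mog, where 7.86% of all 5232 probe sets with a fit were called higher. Mog M99485_at was 1.84-fold (95% interval 1.57 to 2.14, limma adjusted p = 0.00114), Mobp D28111_at 1.88-fold (1.46 to 2.41), Cnp 1.55-fold (1.30 to 1.84) and Mag X06554cds_s_at 1.45-fold (1.24 to 1.70) above that mean. Mal at 1.20-fold (1.06 to 1.36, limma adjusted p = 0.0689), Mbp at 1.04-fold (0.893 to 1.21) and Mag M22357_at at 1.37-fold (0.973 to 1.93) did not pass. Neuron markers were also higher here for 2 of 6, the growth cone protein gene Gap43 at 1.53-fold and the ubiquitin hydrolase gene Uchl1 at 1.42-fold. Syt1, at 0.761 times, and Syp, at 1.12-fold, did not pass, and the median log2 difference of the 6 was 0.09. The count of 9 rested on the region's own arrays, being 1 without its cocaine array and 5 without its saline array, and it was 2 when probe sets of low mean were tested too.

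In the caudate putamen, 4 of the 12 probe sets were higher, where 1.74% of all tested probe sets were called higher. They were Mobp D28111_at at 2.18-fold (1.70 to 2.79, limma adjusted p = 0.0077), Mobp D28111_g_at at 1.86-fold (1.49 to 2.32), Mog M99485_at at 1.78-fold (1.52 to 2.07) and Cnp at 1.46-fold (1.23 to 1.74). Mbp, at 1.20-fold (1.03 to 1.40, limma adjusted p = 0.208), and Mal, at 1.22-fold (1.08 to 1.38), did not pass, and Mag X06554cds_s_at had a fold of 0.998 (0.854 to 1.17). The count was 0 without either caudate putamen array and 1 with no filter on low probe sets. Neuron markers ran the other way in this region: 5 of 6 tested were lower, where 2.35% of all probe sets were called lower, among them the synaptic vesicle protein gene Syp at 0.465 times, the calcium sensor gene Syt1 at 0.492 times, Uchl1 at 0.618 times and Gap43 at 0.701 times the mean of the other 4 regions, and their summed index was 60981 with cocaine and 59917 with saline, against 94106 with cocaine and 93809 with saline in the ventral tegmental area. The part of this in the myelin result was not tested.

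In the prefrontal cortex, 5 of the 12 probe sets were lower, where 3.71% of all tested probe sets were called lower. Mobp D28111_at was 2.16-fold (limma adjusted p = 0.00866), Mog M99485_at 2.14-fold, Mobp D28110_g_at 2.12-fold, Mobp D28111_g_at 2.05-fold and Cnp 1.78-fold lower than the mean of the other 4 regions. Of the rest, Mal was nearest the threshold, with a log2 difference of -0.33 ± 0.08 (SE, limma adjusted p = 0.0513), and Mbp had -0.20 ± 0.09 (limma adjusted p = 0.364). Of the neuron markers, Snap25, a protein of vesicle fusion, stood at 1.55-fold and Syp at 1.35-fold here, both past the threshold. The share of all probe sets called higher here is not given, and it cannot exceed the unadjusted 4.03% given below. Others of that list went the other way without passing, Gap43 at 0.815 times and Uchl1 at 0.838 times. At an unadjusted p under 0.05, 2 of the 6 were higher and 2 lower, where 4.03% and 12.9% of all probe sets were. The part of neuron markers in the myelin result was not tested. Without the cocaine array of the prefrontal cortex, the array that stood apart, the count was 1, and it was 8 without either amygdala array and 1 with no filter on low probe sets. In the nucleus accumbens and amygdala, limma called 0 of the 12 probe sets in either direction, where 0.459% and 0.401% of all tested probe sets were called higher and 0.0765% and 0.210% lower. Without the amygdala cocaine array, 1 was called lower in the amygdala. At an unadjusted p under 0.05, 1 probe set was lower in the nucleus accumbens and 6 were lower in the amygdala, where 1.72% and 4.97% of all probe sets were lower at that threshold. The median log2 difference of the 12 probe sets was 0.56 for the ventral tegmental area, 0.32 for the caudate putamen, -0.16 for the nucleus accumbens, -0.26 for the amygdala and -0.38 for the prefrontal cortex, while over all tested probe sets the medians were 0.02, -0.04, -0.00, 0.01 and 0.00.

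**Figure D3:**
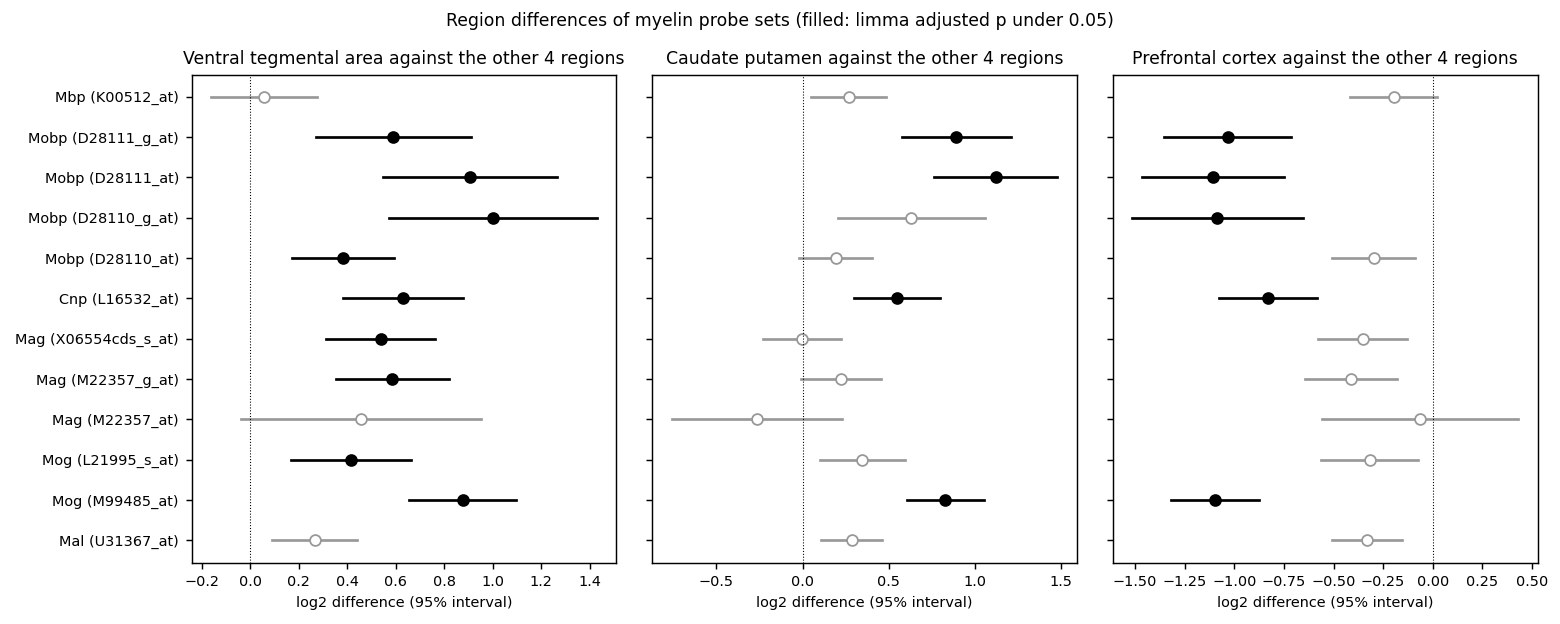
Log2 difference of each myelin probe set (rows) in the ventral tegmental area, caudate putamen and prefrontal cortex against the mean of the other 4 regions (x axis, dot with 95% interval), filled black where the limma adjusted p was under 0.05. The calls number 9 higher, 4 higher and 5 lower in the 3 panels.

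The same fit gave the differences between pairs of regions, 10 in all. The most calls came between the ends of the order. Between the ventral tegmental area and the prefrontal cortex, 10 of 12 probe sets were higher in the ventral tegmental area, where 8.85% of all probe sets were called higher. Mobp D28110_g_at was 3.18-fold (95% interval 2.18 to 4.63), Mobp D28111_at 3.06-fold (2.23 to 4.19), Mog M99485_at 2.99-fold (2.46 to 3.63, limma adjusted p = 0.000354), Cnp 2.25-fold (1.81 to 2.80), Mag M22357_g_at 1.74-fold (1.42 to 2.13) and Mal 1.39-fold (1.19 to 1.62) higher. Mbp, at 1.15-fold (0.949 to 1.39), and Mag M22357_at, at 1.33-fold (0.864 to 2.06), did not pass. The count was 5 without the ventral tegmental cocaine array and 5 without the prefrontal cocaine array. On 11 of the 12 probe sets both ventral tegmental arrays lay above both prefrontal arrays, where 30.4% of all 4894 probe sets with a value on every array did so.

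Between the caudate putamen and prefrontal cortex, 6 probe sets were higher in the caudate putamen, where 2.87% of all were called higher. Mobp D28111_at was 3.44-fold (95% interval 2.51 to 4.72, limma adjusted p = 0.00263) and Mobp D28111_g_at 2.91-fold (2.20 to 3.85) higher there, both wider than between the ventral tegmental area and prefrontal cortex. Mobp D28110_g_at, at 2.59-fold (1.78 to 3.78), was narrower than its 3.18-fold between the ventral tegmental area and prefrontal cortex. Mog M99485_at was 2.91-fold (2.40 to 3.53), Cnp 2.15-fold (1.73 to 2.67) and Mal 1.41-fold (1.20 to 1.64) higher, and Mbp, at 1.29-fold (1.07 to 1.57, limma adjusted p = 0.152), did not pass. That count was 1 without either caudate putamen array and 10 without either amygdala array. Against the amygdala, 7 probe sets were higher in the ventral tegmental area, where 3.92% of all were called higher, and 4 were higher in the caudate putamen, where 1.51% were. The count of 7 was 1 without the ventral tegmental cocaine array, 4 without its saline array or either nucleus accumbens array, and 2 without either caudate putamen array. The count of 4 was 0 without either caudate putamen array and 2 without either nucleus accumbens array. Against the nucleus accumbens, Mobp D28111_at, at 2.12-fold, and Mog M99485_at, at 1.77-fold, were higher in the ventral tegmental area, where 2.03% of all were called higher. This count of 2 was 0 without the ventral tegmental cocaine array or either nucleus accumbens array, 1 without either caudate putamen array, 8 without either amygdala array and 5 without either prefrontal array.

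Neighbours in the order were then compared. Between the ventral tegmental area and caudate putamen, 0 of 12 probe sets passed, with folds of 0.845 (95% interval 0.639 to 1.12) for Mobp D28111_g_at, 1.05 (0.841 to 1.30) for Cnp and 1.35 (1.11 to 1.64, limma adjusted p = 0.0782) for Mag X06554cds_s_at, and 1 was higher at an unadjusted p under 0.05, where 13.8% of all probe sets were. Without either amygdala array 1 passed. Of all probe sets, 4.85% were called higher and 2.73% lower in the ventral tegmental area for that pair. Between the caudate putamen and nucleus accumbens, 2 probe sets, Mobp D28111_at and Mog M99485_at, were higher in the caudate putamen, where 0.325% of all were called higher, and this count was 0 without any 1 of the 4 arrays of these regions and 1 without either ventral tegmental array. Between the nucleus accumbens and amygdala, and between the amygdala and prefrontal cortex, limma called 0 of 12, with 1 and 5 higher at an unadjusted p under 0.05, where 3.33% and 5.29% of all probe sets were. Over all probe sets, 0.287% and 0.153% were called higher and 0.210% and 0.0191% lower in those pairs, and without the amygdala saline array 1 myelin probe set passed in the second. Mog M99485_at was 1.69-fold higher in the nucleus accumbens than in the prefrontal cortex, where 1.07% of all were called higher. That single call was lost without an array of the nucleus accumbens, caudate putamen or prefrontal cortex or the ventral tegmental saline array, and 3 were called without either amygdala array.

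Region accounted for most of the spread of these transcripts. Of the sum of squares of the log2 index over the 10 arrays, the median share of the 12 probe sets was 91.5% between regions and 0.765% between treatments, against 55.6% and 2.49% over all 4894 tested probe sets with a value on every array. Mog M99485_at had 97.5% between regions and Mbp 73.4%. Mag M22357_at had 43.1%. Across the 10 arrays, the 15 pairs of the 6 genes correlated with a Pearson r between 0.471, for Mbp and Mag, and 0.962, for Mobp and Cnp, with a median of 0.818. These correlations share the same arrays and regions and are given as a description.

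Outside the 6 genes, the 10 probe sets whose log2 profile was most like the mean myelin profile had r between 0.938 and 0.978 over the 10 arrays. Of these, 5 stood on the list of other oligodendrocyte and myelin genes: Pllp (r = 0.975), a proteolipid related to Mal, the lipid carrier Apod (0.975), the lysophosphatidic acid receptor Lpar1 (0.961), the tetraspanin Cd9 (0.954) and the carbonic anhydrase Car2 (0.949). The others were Hikeshi (0.978), Cyb5a (0.976), Rpl6 (0.952), Atp5pd (0.947) and Psma2 (0.938). Apod had an index of 21751 with cocaine and 18506 with saline in the ventral tegmental area, against 6751 with cocaine and 7968 with saline in the prefrontal cortex.

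On the list of other oligodendrocyte and myelin genes, 17 of 46 symbols were tested. In the ventral tegmental area 7 of the 17 were higher, against the 7.86% of all probe sets: Qdpr, which regenerates tetrahydrobiopterin, at 2.34-fold, Apod at 1.96-fold, Lpar1 at 1.70-fold, the small heat shock protein gene Cryab at 1.62-fold, the protease Klk6 at 1.55-fold, Cd9 at 1.51-fold and Pllp at 1.39-fold. In the caudate putamen 4 were higher, against 1.74% of all probe sets, among them Ugt8, which makes the galactolipids of myelin, at 2.02-fold. In the prefrontal cortex 8 were lower, against 3.71% of all probe sets. Ugt8 stood there at 0.464 times and Apod at 0.557 times the mean of the other regions. The transcription factors Sox10, at 1.09-fold, and Myrf, at 1.03-fold, did not pass in the ventral tegmental area. Of 3 tested precursor markers, Ptprz1, at 0.540 times, was lower in the prefrontal cortex, and Pdgfra and Cspg4 stood at 1.10-fold and 1.03-fold there and did not pass.

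Genes of cholesterol and lipid synthesis, which supplies myelin among other membranes, and of its control were higher in the ventral tegmental area for 5 of 11 tested. Of all probe sets, 7.86% were called higher there. The 5 were Insig1 at 1.69-fold, Idi1 at 1.60-fold, Sqle at 1.58-fold, Fdps at 1.58-fold and Fdft1 at 1.40-fold. In the caudate putamen the median log2 difference of the 11 was -0.21, and 0 of 11 passed in limma. At an unadjusted p under 0.05, 3 were lower, where 9.46% of all probe sets were. Genes of large axons and neurofilaments were higher in the ventral tegmental area for 2 of 8, against the same 7.86%. These were Prph at 1.46-fold and the paranodal adhesion gene Cntn1 at 1.34-fold. In the caudate putamen 2 of 8 were lower, against 2.35% of all probe sets, Ina at 0.659 times and Cntn1 at 0.720 times. The neurofilament gene Nefh, at 0.685 times, and Thy1, at 0.735 times, did not pass in the caudate putamen. Astrocyte markers were higher in the ventral tegmental area for 2 of 8, against the same 7.86%, Clu at 1.47-fold and S100b at 1.26-fold. Glul, at 0.926 times, and Sparcl1, at 1.06-fold, did not pass there. Of 3 genes of Schwann cells and peripheral myelin, 5 microglia markers and 6 markers of vessels and blood, limma called 0 in the ventral tegmental area, caudate putamen or prefrontal cortex. At an unadjusted p under 0.05 these lists had 0 calls for Schwann cells, 1 for microglia, Ctss in the prefrontal cortex, and 3 for vessels and blood over the 3 regions. At that threshold, 15.4% of all probe sets were higher and 5.68% lower in the ventral tegmental area. These shares were 6.23% and 9.46% in the caudate putamen and 4.03% and 12.9% in the prefrontal cortex. The prefrontal folds of the named genes without a call were 0.968 for Ngfr, 0.974 for Pmp22 and 1.12 for Prx of the Schwann list, 0.757 for Ctss, 1.01 for C1qb, 1.09 for Aif1 and 1.08 for C1qc of the microglia list, and 0.763 for Acta2, 1.33 for Hbb, 0.981 for Slc4a1 and 1.25 for Vwf of the vessel and blood list.

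Choroid plexus and meningeal markers, 7 in number, held the widest differences of these lists. Ttr, the transthyretin gene of the choroid plexus, had a log2 range of region means of 4.30. It was 9.07-fold higher in the amygdala (limma adjusted p = 0.0109) and 4.43-fold higher in the caudate putamen (limma adjusted p = 0.0107), and stood at 0.218 times the other regions in the nucleus accumbens (limma adjusted p = 0.036) and 0.248 times in the prefrontal cortex (limma adjusted p = 0.0158). In the ventral tegmental area Ttr had 0.459 times and did not pass, and a second Ttr probe set was listed at 0 on 5 arrays. Ttr thus had the direction of the myelin genes in the caudate putamen and prefrontal cortex, and not in the ventral tegmental area or amygdala. In the nucleus accumbens, where no myelin probe set passed, Ttr and the myelin median both lay below the other regions. In the nucleus accumbens and amygdala the median log2 difference of the 12 myelin probe sets was -0.16 and -0.26. The part of Ttr in the myelin result was not tested. Ptgds, at 0.511 times, and Dcn, at 0.949 times, did not pass in the caudate putamen. Enpp2, which mature oligodendrocytes also make, was 1.51-fold higher in the ventral tegmental area and 0.525 times the other regions in the prefrontal cortex. It stood at 1.48-fold in the caudate putamen, 0.673 times in the nucleus accumbens and 1.26-fold in the amygdala, and did not pass there. Its amygdala value thus lay on the other side of the other regions from the myelin median. The summed index of the neuron list ran from 60981 to 97443 over cocaine arrays and from 59917 to 100919 over saline arrays, that of the astrocyte list from 153350 to 195895 and from 163020 to 194062, and that of the microglia list from 29505 to 34899 and from 31117 to 34007. Probe sets of Aqp4 on 3 arrays, and of Gja1 and Snap25 on 1 array each, were listed at 0. The part of these cell types in the myelin gradient was not tested.

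**Figure D4:**
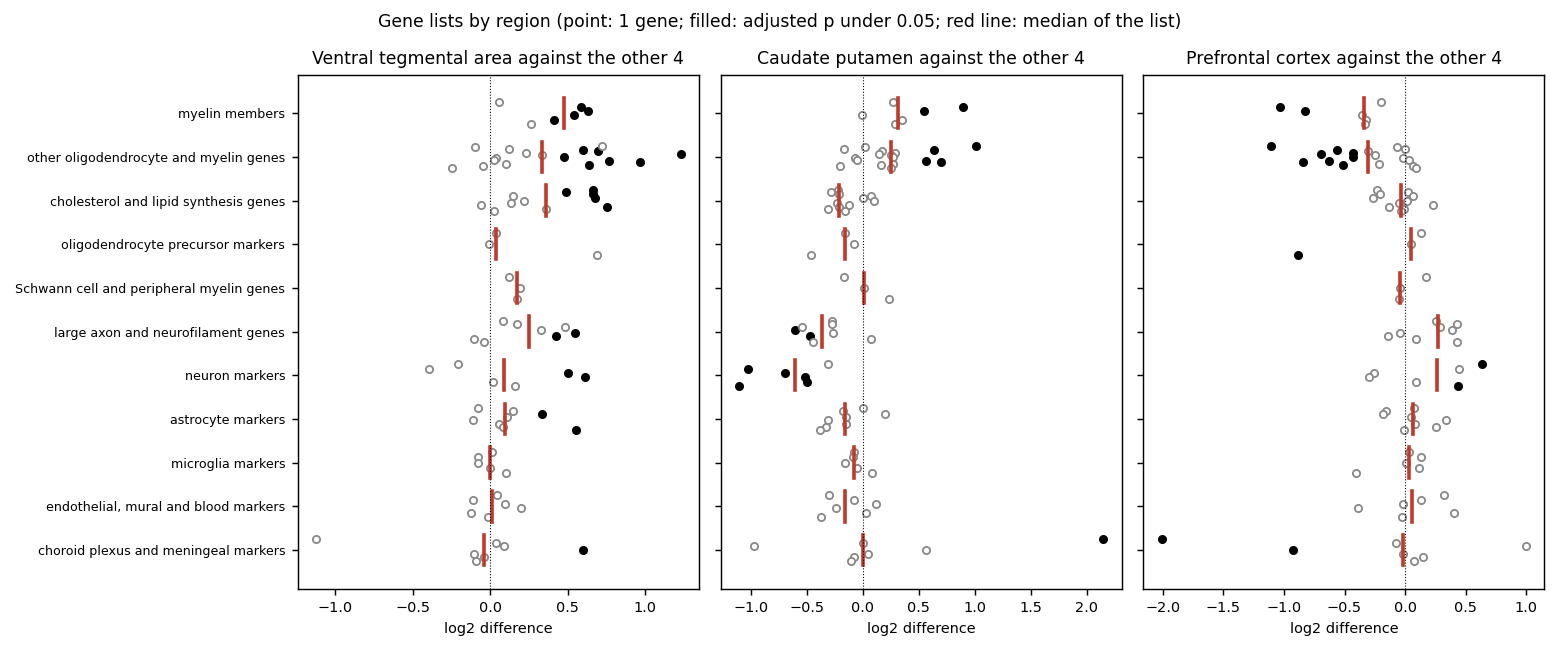
Log2 difference of single genes (points) of 11 lists (rows) in 3 regions against the mean of the other 4 (x axis), filled where the limma adjusted p was under 0.05, with the list median as a red line. The medians of the myelin genes and of the other oligodendrocyte genes lie to the right of 0 in the ventral tegmental area and caudate putamen and to the left in the prefrontal cortex, with 7 higher, 4 higher and 8 lower of the 17 other oligodendrocyte genes called.

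Cocaine was compared with saline across the 5 regions, with region as a block. Of the 12 myelin probe sets, limma called 0 after adjustment and 0 at an unadjusted p under 0.05, in a test that called 0% of all 5244 probe sets and gave 69 of them an unadjusted p under 0.05. The log2 change was below 0 on 11 of the 12 probe sets, with a median of -0.07, where the median over all probe sets was -0.01 and 54.7% of them lay below 0. Mobp D28110_g_at had the lowest value, -0.22 ± 0.15 (SE, 95% interval -0.57 to 0.12), and was lower with cocaine in 4 of 5 regions. Mog M99485_at had -0.13 ± 0.08 (-0.30 to 0.05, lower in 3 of 5), Cnp -0.09 ± 0.09 (-0.29 to 0.11, lower in 3 of 5), Mbp -0.03 ± 0.08 (-0.21 to 0.14, lower in 3 of 5) and Mal -0.01 ± 0.06 (-0.15 to 0.13, lower in 2 of 5). These 6 genes were measured on the same arrays, so their shared sign is not a repeat of the comparison. The intervals of the 12 probe sets lay between -0.57 and 0.31, which leaves room for changes of either sign.

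Within regions, where 1 cocaine array stood against 1 saline array and no test was possible, the median ratio of the myelin probe sets was above 0 in the ventral tegmental area and below 0 in the other 4 regions. In the ventral tegmental area 11 of the 12 probe sets were higher with cocaine, with a median log2 ratio of 0.20, where 57.5% of all tested probe sets were higher with a median of 0.03. In the caudate putamen 11 of 12 were lower, with a median of -0.12 against -0.03 over all probe sets, of which 59.2% were lower. The nucleus accumbens had 8 lower with a median of -0.13, the amygdala had 9 with a median of -0.16, and the prefrontal cortex had 9 with a median of -0.11, where the medians of all probe sets were -0.03, -0.04 and 0.01 and 59.4%, 55.0% and 48.0% of all were lower. Over the 12 probe sets and 5 regions, 2 ratios reached a fold of 1.5: Mobp D28110_g_at was 1.67-fold lower with cocaine in the prefrontal cortex, and Mag M22357_at was 1.68-fold lower in the amygdala. Of all probe sets, 1.72% were lower and 3.20% higher by at least that fold in the prefrontal cortex, and 7.47% lower and 1.42% higher in the amygdala. The shares were 0.895% higher and 0.758% lower in the ventral tegmental area, 0.0382% higher and 0.115% lower in the caudate putamen, and 0.0573% higher and 0.172% lower in the nucleus accumbens.

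The Mobp probe sets D28111_g_at, D28111_at and D28110_g_at differed in sign between the ventral tegmental area and prefrontal cortex. They had log2 ratios of 0.31, 0.42 and 0.46 in the ventral tegmental area and of -0.51, -0.56 and -0.74 in the prefrontal cortex. The fourth, D28110_at, had 0.16 in the ventral tegmental area and almost no change, -0.0025, in the prefrontal cortex. Cnp had 0.13 and -0.39 in the same regions, while Mal had -0.07 and 0.02. The prefrontal ratios rest on the cocaine array that stood apart from the rest. When the 5 ratios of each probe set were tested in limma, 1 region against the other 4, the single region had 1 ratio and all spread came from the other 4. With 1 ratio on 1 side, no call is drawn from that test, and only the size of the difference is given. The median difference of the 12 probe sets from the mean of the other 4 ratios was 0.31 for the ventral tegmental area and -0.11 for the caudate putamen. It was -0.06 for the nucleus accumbens, -0.12 for the amygdala and -0.08 for the prefrontal cortex. The other oligodendrocyte genes had median log2 ratios of 0.07 in the ventral tegmental area and -0.02 in the prefrontal cortex, and 12 of 17 had a log2 change below 0 across the regions, with 0 past limma's threshold. Of the genes named from the other lists for their change with cocaine, Ttr had the largest log2 change, -0.50 ± 0.26 (SE), followed by Enpp2 at -0.29, Ngfr at -0.19 and Clu at -0.18. Slc1a3 had -0.13, Csf1r 0.09, Flt1 0.08 and Dhcr7 -0.07, and limma called 0 of them.

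**Figure D5:**
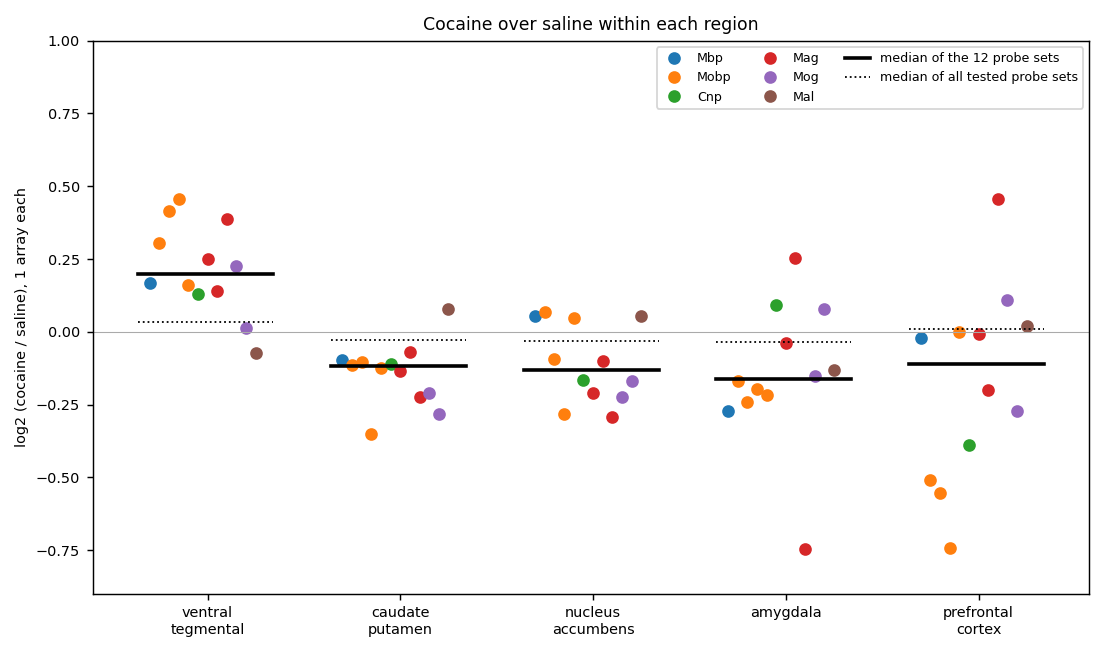
Log2 ratio of the cocaine to the saline array (y axis) of the 12 myelin probe sets in each region (x axis), coloured by gene, with the median of the 12 as a solid line and that of all tested probe sets as a dotted line. The solid line lies at 0.20 in the ventral tegmental area and between -0.16 and -0.11 in the other 4 regions.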

How the data were processed

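Expression in rat brain was measured on 10 single-colour oligonucleotide arrays. Per the labels, the authors used dChip to make the deposited expression index, an intensity that is not on a log scale. Its version, model and scaling are not given in the labels. Gene symbols came from the platform annotation, which gave 1 symbol for 7006 of 8740 probe sets, several for 308 and none for 1426. The 59 control probe sets were left out. Exact zeros were taken as missing, values below the 20th percentile of values above 0 (1028) were raised to it, and log2 was taken with no further normalization. Probe sets were ranked by mean, and the 5244 in the top 60% were tested in R 4.3.3 by limma 3.58.1 (eBayes with trend) and Benjamini-Hochberg adjustment at 0.05, and the region and cocaine fits had 4 residual degrees of freedom. The calculations were tested on simulated data. The members, gene lists and tests were chosen with earlier results of these data known, and the treatment of zeros follows that earlier work. The test of 1 region's ratio against the other 4 was added after the data were seen and had 3. Of each list, up to 4 genes with the largest range of region means and up to 2 with the largest cocaine change were to be named. Others that passed were named after their values were seen. The genes most like the myelin profile were taken by Pearson r. The samples of a region were paired because the labels give both the same region. The number of arrays limits the precision.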

Additional observations from a re-analysis of the deposited data

Results flagged for a closer look

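On 2 of the 12 probe sets the log2 ratio of cocaine to saline had opposite signs in 2 regions and differed by at least 1 between them, a bound set after the values were seen. Mobp D28110_g_at had a ratio of 0.46 in the ventral tegmental area and -0.74 in the prefrontal cortex, a difference of 1.20. Mag M22357_at had 0.46 in prefrontal cortex against -0.75 for the amygdala, a difference of 1.20. Each ratio is 1 array over 1 array, and the difference between these regions was not tested. The share of all probe sets that met the same bound was not computed.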

How the results depend on the processing

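Under 8 alternatives other than leaving out arrays, 622 of 672 values kept their direction and their side of the threshold or, for counts, stayed within 1.5 times. With no filter on low probe sets, the counts were 2 higher in the ventral tegmental area, 1 higher in the caudate putamen and 1 lower in the prefrontal cortex, and for pairs 1 for the ventral tegmental area over the amygdala, 1 for the caudate putamen over the amygdala, and 0 for the ventral tegmental area over the nucleus accumbens, the caudate putamen over the nucleus accumbens and the nucleus accumbens over the prefrontal cortex. More probe sets were then tested. With zeros raised to the floor, these 5 pairs gave 4, 2, 1, 0 and 0, against 7, 4, 2, 2 and 1 as reported, and with quantile normalization the ventral tegmental area over the amygdala gave 4, and the cause was not tested. Values that changed sign all lay near 0 and had not passed. Under median scaling they were Mag M22357_g_at with cocaine (-0.00207) and Mag X06554cds_s_at in the caudate putamen (0.038), and under quantile normalization Mbp (0.00866), Mag X06554cds_s_at (0.00573) and Mal (0.045) with cocaine and Mag X06554cds_s_at in the caudate putamen (0.031). With no replicate block, that is with region left out of the model, cocaine still gave 0 calls among the 12 probe sets and their median stayed at -0.07.

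Leaving out 1 array at a time, the counts ranged from 1 to 11 in the ventral tegmental area, 0 to 6 in the caudate putamen, 1 to 8 lower in the prefrontal cortex and 0 to 1 lower in the amygdala. For pairs they ranged from 0 to 1 for the ventral tegmental area over the caudate putamen, 0 to 8 over the nucleus accumbens, 1 to 8 over the amygdala and 5 to 10 over the prefrontal cortex, and for the caudate putamen from 0 to 3 over the nucleus accumbens, 0 to 5 over the amygdala and 1 to 10 over the prefrontal cortex. They ranged from 0 to 3 for the nucleus accumbens and 0 to 1 for the amygdala over the prefrontal cortex. A region left with 1 array is assumed to vary like the others. Values that changed sign ranged from -0.070 to 0.18 for Mbp in the ventral tegmental area, -0.070 to 0.063 for Mag X06554cds_s_at in the caudate putamen and -0.40 to 0.27 for Mag M22357_at in the prefrontal cortex. Leaving out 1 region pair, the cocaine count stayed at 0 and the median ranged from -0.13 to -0.03. Log2 changes with cocaine ranged from -0.085 to 0.025 for Mbp, -0.18 to 0.023 for Mobp D28111_g_at, -0.074 to 0.021 for Mobp D28110_at, -0.097 to 0.018 for Mag X06554cds_s_at, -0.058 to 0.055 for Mag M22357_g_at, -0.22 to 0.082 for Mag M22357_at and -0.032 to 0.020 for Mal.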
